A study of Rattus norvegicus with 7 samples.

Results

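The transcripts encoded by the mitochondrial genome formed 26 of the 17141 gene rows of a table of RPKM values (read numbers scaled to gene length and library size) from neonatal rat heart muscle cells. They were chosen by name and gene type alone: all rows whose symbol starts with Mt- or AY172581, or whose gene type starts with Mt_. Of these rows, 13 are protein-coding, 2 are ribosomal RNAs and 11 are transfer RNAs. Positions on the mitochondrial genome and the other tRNA genes of that genome were not analysed here. The AY172581 rows carry no gene name in the table, so the 2 rRNA rows are told apart by length only (1571 and 958 bases) and no tRNA row is given an amino acid.

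Ventricular cardiomyocytes came from wild-type Wistar rats on postnatal day 0. All cells received 1 synthetic miRNA at 25 nM and were harvested 72 h after transfection, and no untransfected sample was analysed here. The 7 groups of 1 library each received cel-miR-67, hsa-miR-199a-3p, hsa-miR-590-3p, hsa-miR-373-3p, hsa-miR-302d-3p, hsa-miR-33b* or hsa-miR-1825. The cel-miR-67 library, whose miRNA is a nematode sequence, was the reference, because the authors' deposited ratios divide by it, although the labels do not call it a control. The cells are those that had not attached to the dish after a first plating, a step that removes fast-attaching cells. The same cel-miR-67 library served all 6 comparisons, so a high value of it and lower values of the 6 others cannot be told apart, and no p-value is given, since each group has 1 library.

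Mitochondrial DNA is a small circular genome that is transcribed from both strands into long precursor RNAs by the RNA polymerase Polrmt, with the DNA-packing factor Tfam and the initiation factor Tfb2m. Transfer RNAs lie between most of the other genes, and cutting them out of the precursor frees the mRNAs and rRNAs. The mRNAs encode core subunits of respiratory complexes I, III and IV and of the ATP synthase (complex V), whose other subunits are encoded in the nucleus, and the rRNAs form the core of the mitochondrial ribosome. The nd6 gene is the only mRNA gene on the light strand, the strand opposite to the one that encodes the other mRNAs. Heart muscle is rich in mitochondria and their RNA.

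One sequence bears on the library in which mitochondrial RNA was lowest. It is the rat mature miR-199a-3p from the RefSeq table of build GRCr8, with the seed (bases 2 to 8, the part that pairs with target mRNAs) in capitals. Whether the transfected human molecule has the same letters was not checked here.
rno-miR-199a-3p: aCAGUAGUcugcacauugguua

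The reads in the listed rows, recovered from the RPKM steps, numbered 22616067 to 31963293 per library. Cardiomyocyte markers dominated in each library: 10 of 11 listed markers were found, none at 0, and in the cel-miR-67 library Actc1 (cardiac actin) stood at 7073 RPKM, Myl2 (ventricular myosin light chain) at 6838 and Tnnt2 (cardiac troponin T) at 2433. Summed, these markers stood at 21150 RPKM with cel-miR-67, 16320 with hsa-miR-199a-3p, 18052 with hsa-miR-590-3p, 19276 with hsa-miR-373-3p, 19511 with hsa-miR-302d-3p, 20187 with hsa-miR-33b* and 19154 with hsa-miR-1825. The 9 fibroblast markers, none at 0 with cel-miR-67, summed to 837 RPKM with cel-miR-67, to 797 with hsa-miR-199a-3p and to 556 to 675 in the 5 other libraries. Their median log2 change against cel-miR-67 was 0.07 with hsa-miR-199a-3p and -0.44 to -0.31 in the 5 others. The 7 smooth muscle markers, also none at 0 with cel-miR-67, summed to 769 RPKM with cel-miR-67, to 1188 with hsa-miR-199a-3p and to 772 to 1064 in the 5 others. Their median changes from hsa-miR-199a-3p to hsa-miR-1825 were 0.43, 0.19, -0.16, -0.26, 0.11 and 0.24. Of these markers Cnn1, named after its values were seen, stood at 88.8 RPKM with cel-miR-67 and 151 to 298 in the other libraries. The sums of endothelial, leukocyte and erythroid markers were 6.15 to 24.8 RPKM.

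Mitochondrial rows held a large part of all RNA measured. Their share of the summed RPKM was 53.1% with cel-miR-67, 39.0% with hsa-miR-199a-3p, 52.6% with hsa-miR-590-3p, 43.7% with hsa-miR-373-3p, 40.5% with hsa-miR-302d-3p, 48.3% with hsa-miR-33b* and 46.8% with hsa-miR-1825. The share was highest with cel-miR-67, with hsa-miR-590-3p next to it, and lowest with hsa-miR-199a-3p and hsa-miR-302d-3p. As a share of the recovered reads, which does not weight short genes up, the same rows held 41.0%, 27.7%, 41.4%, 33.2%, 30.6%, 37.9% and 35.5% in that order of libraries, and on this scale hsa-miR-590-3p was above cel-miR-67. The rRNA rows alone held 26.9% to 37.1% of the summed RPKM, the tRNA rows 7.96% to 11.7% and the mRNA rows 3.49% to 5.06%.

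**Figure D1:**
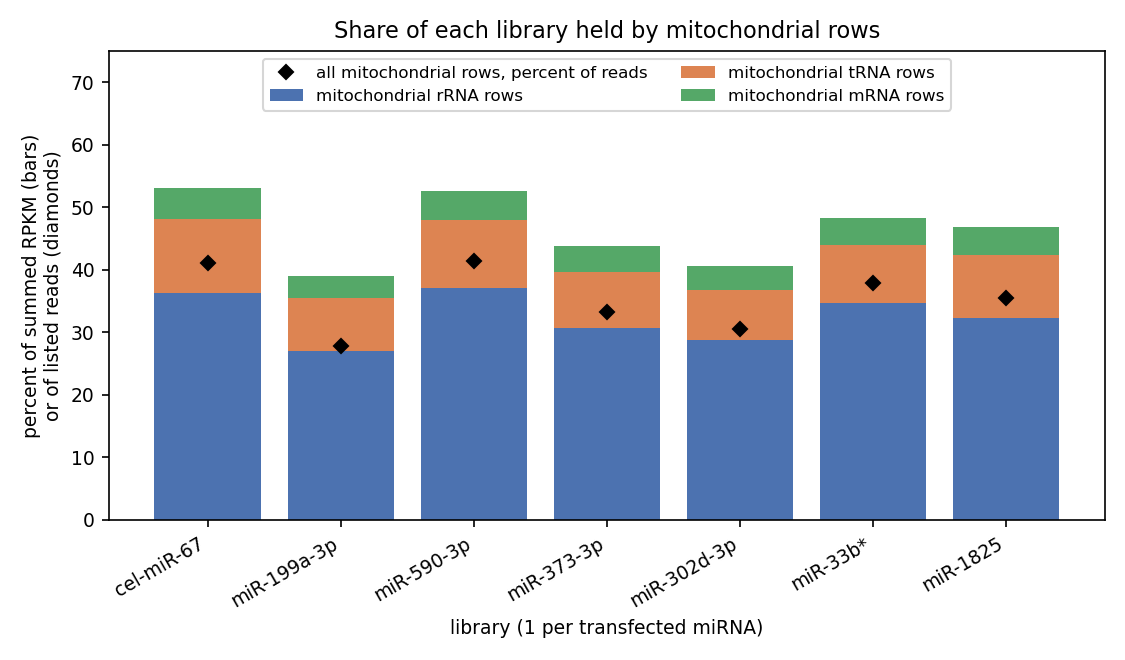
Share of summed RPKM (percent) held by mitochondrial mRNA, rRNA and tRNA rows in each of the 7 libraries, 1 library per bar. The rRNA rows make up most of every bar, and the bars run from 39.0% with hsa-miR-199a-3p to 53.1% with cel-miR-67.

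Against the cel-miR-67 library, the summed mitochondrial RPKM was 52.4% with hsa-miR-199a-3p, 60.7% with hsa-miR-302d-3p, 69.3% with hsa-miR-373-3p, 78.5% with hsa-miR-1825, 82.4% with hsa-miR-33b* and 97.4% with hsa-miR-590-3p. In the RPKM as deposited, the summed RPKM of all rows outside the mitochondrial genome moved far less: it was 92.9% of the cel-miR-67 value with hsa-miR-199a-3p and 99.4% to 101% with the 5 others. Both sums depend on the scaling. Scaled to the total of listed reads, the median change of all rows rose to 0.31 with hsa-miR-199a-3p and 0.23 with hsa-miR-302d-3p. In bulk samples, fewer cells of a type and less RNA per cell cannot be told apart. The cardiomyocyte marker sum was also lowest with hsa-miR-199a-3p, but the median change of the 10 markers was lowest with hsa-miR-590-3p (-0.44), where mitochondrial RNA was nearest to the reference, and was -0.32 with hsa-miR-199a-3p. The 4 other medians were -0.23 with hsa-miR-373-3p, -0.22 with hsa-miR-302d-3p, -0.34 with hsa-miR-33b* and -0.32 with hsa-miR-1825. Myoglobin (Mb), a marker singled out after its values were seen, changed by -0.10 with hsa-miR-199a-3p, -0.79 with hsa-miR-33b* and -2.65 to -2.16 in the 4 others. The part of these markers in the mitochondrial values was not tested.

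The 2 rRNA rows were the most abundant part. The larger, AY172581.24, stood at 241661 RPKM with cel-miR-67, 128100 with hsa-miR-199a-3p, 243659 with hsa-miR-590-3p, 173198 with hsa-miR-373-3p, 153855 with hsa-miR-302d-3p, 207124 with hsa-miR-33b* and 190296 with hsa-miR-1825. The smaller, AY172581.9, stood at 22602, 11954, 22270, 15025, 12517, 21783 and 19365 RPKM in the same order. Both rows were lowest with hsa-miR-199a-3p, next lowest with hsa-miR-302d-3p, and closest to cel-miR-67 with hsa-miR-590-3p, at read ratios of 1.01 and 0.985. A mitochondrial ribosome holds both rRNAs in equal number, and the ratio of the larger to the smaller row in RPKM was 9.51 to 12.3 over the 7 libraries. The libraries came from an mRNA kit that selects RNA by its poly(A) tail, so the level of an rRNA row also depends on how that step captures it, which was not tested. Summed, the rRNA rows changed by -0.92 on the log2 (RPKM + 1) scale with hsa-miR-199a-3p, -0.67 with hsa-miR-302d-3p, -0.49 with hsa-miR-373-3p, -0.33 with hsa-miR-1825, -0.21 with hsa-miR-33b* and 0.01 with hsa-miR-590-3p.

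All 13 mRNA rows were detected with 934 or more reads in every library. Their order by level per length hardly varied. Mt-co1, Mt-cox3, Mt-co2 and Mt-atp8 held places 1 to 4 in this order in all 7 libraries, and Mt-nd1 and Mt-nd3 held places 9 and 10. Mt-nd6, Mt-atp6, Mt-nd5 and Mt-cytb exchanged places 5 to 8 between libraries, and Mt-nd4, Mt-nd4l and Mt-nd2 exchanged places 11 to 13, so within these runs the order of neighbours did not hold beyond the spread over libraries. Mt-co1, the catalytic subunit of complex IV, alone made up 45.6% to 54.1% of the summed mitochondrial mRNA RPKM.

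**Figure D2:**
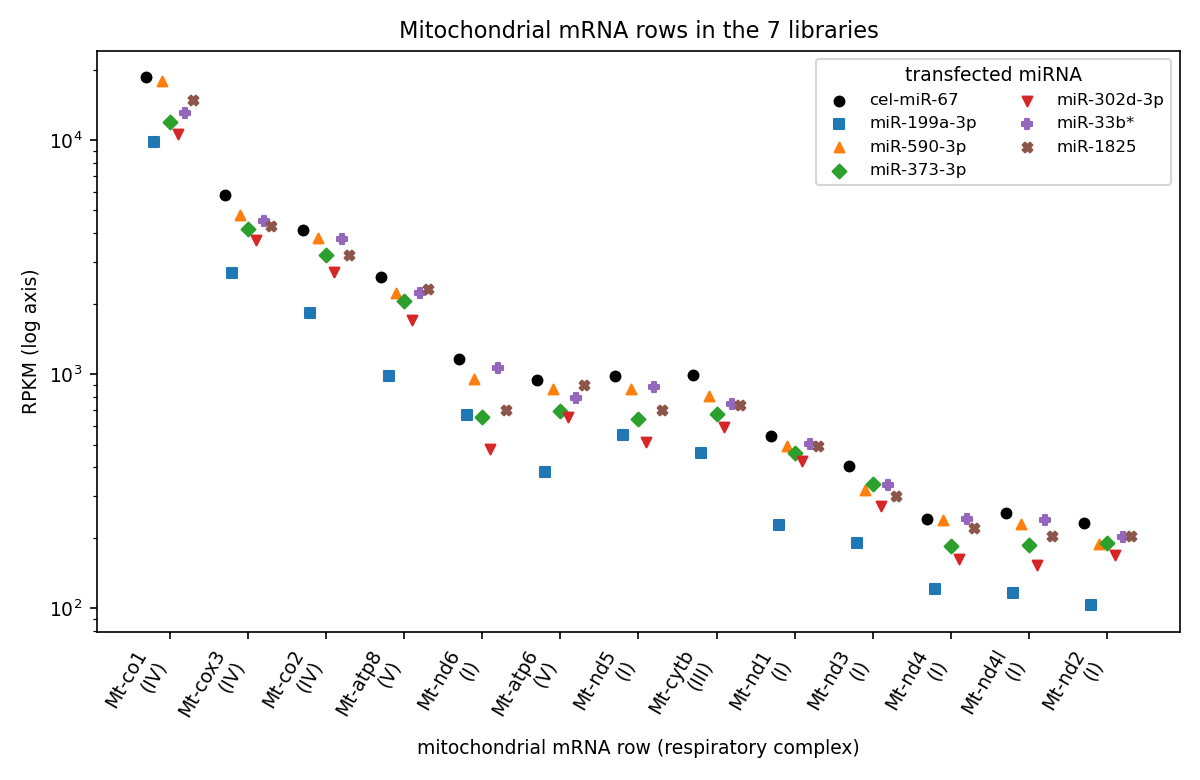
RPKM (log axis) of the 13 mitochondrial mRNA rows, each point 1 library, coloured by the transfected miRNA. Rows span from Mt-co1 at 9813 to 18554 RPKM down to Mt-nd2 at 103 to 231 RPKM, and in these deposited values the cel-miR-67 point is the highest of every row.

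In the RPKM as deposited, all 13 mRNA rows were highest in the cel-miR-67 library, that is, below 0 in all 6 comparisons. The direction depended on the scaling in some libraries: scaled to the total of listed reads, 9 of 13 rows were below 0 in all 6, and scaled to the same sum over all rows, 6 of 13 were. With listed reads, Mt-nd4 (0.12), Mt-nd4l (0.020) and Mt-nd1 (0.0066) turned above 0 with hsa-miR-33b*, and Mt-atp6 (0.059), Mt-nd4 (0.0073) and Mt-nd1 (0.00063) with hsa-miR-1825. With hsa-miR-199a-3p and hsa-miR-302d-3p all 13 rows were below 0 under every scaling tried. In the deposited RPKM over all 12330 rows with a mean of at least 1 RPKM, 13.4% were below 0 in all 6, and among the 544 rows with a mean of at least 100 RPKM, 16.7% were. Both sets of rows include the 13 mRNA rows. Read ratios in the deposited scaling had exact Clopper-Pearson 95% intervals below 1 in 76 of the 78 pairs of an mRNA row and a library. These intervals cover counting error only, and not the choice of scaling. The exceptions were both Mt-nd4, with an interval of 0.957 to 1.02 in the hsa-miR-590-3p library and 0.966 to 1.03 in the hsa-miR-33b* library. The hsa-miR-199a-3p library was the lowest for 11 of the 13 rows, and the hsa-miR-302d-3p library for Mt-nd6 and Mt-nd5.

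The median change of the 13 mRNA rows on the log2 (RPKM + 1) scale was -1.11 with hsa-miR-199a-3p, -0.61 with hsa-miR-302d-3p, -0.44 with hsa-miR-373-3p, -0.32 with hsa-miR-1825, -0.19 with hsa-miR-33b* and -0.19 with hsa-miR-590-3p. Over all rows with a mean of at least 1 RPKM, the medians of the 6 comparisons were between -0.0034 and 0.015. With RPKM rescaled to the total of listed reads, the median of all rows moved up to between 0.01 and 0.31, and the mRNA medians became -0.75, -0.36, -0.25, -0.19, -0.07 and -0.18 in the same order. Relative to the median of all rows the mRNA rows then stood at -1.06 with hsa-miR-199a-3p, against -1.11 before rescaling, and at -0.59 with hsa-miR-302d-3p, against -0.62. Rescaling shifts all rows of a library almost equally, so these differences could hardly move and are no check of the scaling.

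At a fixed limit of 1.5-fold lower than cel-miR-67, all 13 mRNA rows were past it with hsa-miR-199a-3p, where 5.55% of all rows were. With hsa-miR-302d-3p 8 of 13 were past it (7.32% of all rows) and with hsa-miR-373-3p 3 of 13 (6.56%). With hsa-miR-1825 it was 1 of 13, which is near the 6.33% of all rows, and with hsa-miR-33b* and hsa-miR-590-3p it was 0 of 13, where 5.52% and 3.49% of all rows were lower. High rows are a closer background for hsa-miR-199a-3p, since 13.1% of the 544 rows with a mean of at least 100 RPKM were 1.5-fold lower there. These 544 rows include all 13 mRNA rows, the rRNA rows and the tRNA rows AY172581.19, AY172581.7, AY172581.2, AY172581.8 and AY172581.6. All of these were 1.5-fold lower with hsa-miR-199a-3p, which raises this share there. In the 5 others that share was 2.76% with hsa-miR-590-3p, 6.99% with hsa-miR-373-3p, 8.64% with hsa-miR-302d-3p, 6.43% with hsa-miR-33b* and 5.7% with hsa-miR-1825. At 2-fold, 9 of 13 were lower with hsa-miR-199a-3p (1.52% of all rows) and 1 with hsa-miR-302d-3p (2.11%). None was with hsa-miR-590-3p (0.762%), hsa-miR-373-3p (1.87%), hsa-miR-33b* (1.24%) or hsa-miR-1825 (1.63%). Scaled to the total of listed reads, the 1.5-fold count was 10 of 13 with hsa-miR-199a-3p, 2 of 13 with hsa-miR-302d-3p and 1 of 13 with hsa-miR-373-3p. Of all 12330 rows, 261, 512 and 485 were then lower in these libraries, in the same order. No mRNA row was 1.5-fold higher in any library, where 4.81%, 4.7%, 4.83%, 5.11%, 5.17% and 5.94% of all rows were from hsa-miR-199a-3p to hsa-miR-1825, and none was 1.5-fold lower in all 6, as 0.211% of all rows were.

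**Figure D3:**
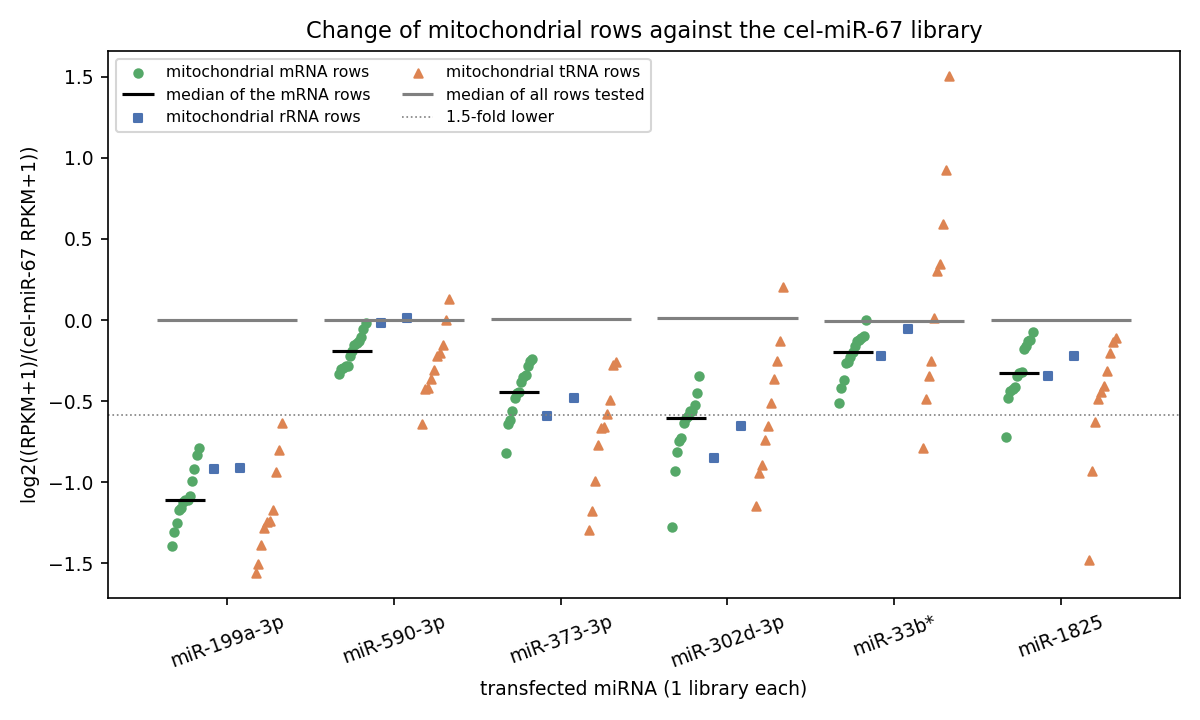
Change of each mitochondrial row against cel-miR-67, on the log2 (RPKM + 1) scale, by library, split into mRNA, rRNA and tRNA rows. In the deposited RPKM the mRNA points lie below 0 in all 6 libraries (10 of 13 with hsa-miR-33b* and with hsa-miR-1825 when scaled to the total of listed reads) and reach lowest with hsa-miR-199a-3p, while the tRNA points of the hsa-miR-33b* library lie on both sides of 0.

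Complex IV, the oxygen-reducing end of the chain, was encoded by the most abundant mRNAs. Its 3 rows made up 74.7% to 79.0% of the summed mitochondrial mRNA RPKM. Mt-co1 stood at 18554 RPKM with cel-miR-67, 9813 with hsa-miR-199a-3p, 17892 with hsa-miR-590-3p, 11909 with hsa-miR-373-3p, 10556 with hsa-miR-302d-3p, 12991 with hsa-miR-33b* and 14884 with hsa-miR-1825. The hsa-miR-590-3p library was close to cel-miR-67 and all others were lower, with changes of -0.92, -0.05, -0.64, -0.81, -0.51 and -0.32 in that order. The read ratio of Mt-co1 in the hsa-miR-199a-3p library was 0.529 (95% interval 0.527 to 0.531).

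Mt-co2, which holds the first electron-accepting copper site of complex IV, stood at 4111, 1824, 3827, 3222, 2726, 3771 and 3236 RPKM in the order of libraries from cel-miR-67 to hsa-miR-1825. Mt-cox3, the third mitochondrial subunit of the complex, stood at 5817, 2694, 4770, 4173, 3743, 4505 and 4292 RPKM. The 3 rows did not keep one ratio: that of Mt-co1 to Mt-co2 was 3.44 with hsa-miR-33b*, 4.51 with cel-miR-67 and 5.38 with hsa-miR-199a-3p. In the hsa-miR-199a-3p library Mt-co1 was less lowered (-0.92) than Mt-cox3 (-1.11) and Mt-co2 (-1.17). In the hsa-miR-33b* library the order was the opposite, at -0.51 for Mt-co1, -0.37 for Mt-cox3 and -0.12 for Mt-co2.

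The ATP synthase subunits of the membrane sector, Mt-atp8 and Mt-atp6, showed the most negative mRNA changes of the hsa-miR-199a-3p comparison. Mt-atp8 stood at 2590 RPKM with cel-miR-67, 986 with hsa-miR-199a-3p, 2217 with hsa-miR-590-3p, 2046 with hsa-miR-373-3p, 1701 with hsa-miR-302d-3p, 2212 with hsa-miR-33b* and 2315 with hsa-miR-1825. Mt-atp6, the proton channel subunit, stood at 944, 380, 863, 694, 655, 790 and 897 RPKM in the same order. Their changes with hsa-miR-199a-3p were -1.39 and -1.31, and those in the 5 other libraries lay between -0.61 and -0.07. Complex V made up 7.53% of the mitochondrial mRNA RPKM with hsa-miR-199a-3p and 9.15% to 11.0% in the 6 other libraries.

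Complex III has 1 mitochondrial subunit, Mt-cytb (cytochrome b), which carries its haem groups in the membrane. Mt-cytb stood at 994 RPKM with cel-miR-67, 460 with hsa-miR-199a-3p, 806 with hsa-miR-590-3p, 674 with hsa-miR-373-3p, 591 with hsa-miR-302d-3p, 741 with hsa-miR-33b* and 741 with hsa-miR-1825. The reference was again above every other library, and the row changed by -1.11, -0.30, -0.56, -0.75, -0.42 and -0.42.

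Complex I, the entry point for electrons from NADH, has 7 mitochondrial subunits, all in its membrane arm, and their rows made up 9.69% to 12.1% of the mitochondrial mRNA RPKM. Mt-nd1, at the quinone end of the arm, stood at 542 RPKM with cel-miR-67, 227 with hsa-miR-199a-3p, 491 with hsa-miR-590-3p, 460 with hsa-miR-373-3p, 426 with hsa-miR-302d-3p, 501 with hsa-miR-33b* and 495 with hsa-miR-1825. Mt-nd1 was thus split between the hsa-miR-199a-3p library, at -1.25, and the 5 others, at -0.35 to -0.11. Mt-nd2, a proton-pumping subunit, had a like split at -1.16 against -0.45 to -0.18, from 231, 103, 188, 189, 168, 201 and 204 RPKM. Mt-nd3, a small membrane subunit, was again highest with cel-miR-67 (403 RPKM) and lowest with hsa-miR-199a-3p (190), with 272 to 339 RPKM in the 5 others.

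The proton-pumping subunit Mt-nd4 stood at 240 RPKM with cel-miR-67, 120 with hsa-miR-199a-3p, 238 with hsa-miR-590-3p, 184 with hsa-miR-373-3p, 163 with hsa-miR-302d-3p, 240 with hsa-miR-33b* and 221 with hsa-miR-1825. Its small neighbour Mt-nd4l stood at 254, 116, 228, 186, 153, 237 and 203 RPKM. Mt-nd4 was the least lowered mRNA row with hsa-miR-590-3p (-0.02) and with hsa-miR-33b* (-0.0028), and neither difference was beyond counting error.

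Mt-nd6 and Mt-nd5 departed from the other complex I rows. Mt-nd6, the light-strand gene, stood at 1159 RPKM with cel-miR-67, 670 with hsa-miR-199a-3p, 950 with hsa-miR-590-3p, 655 with hsa-miR-373-3p, 477 with hsa-miR-302d-3p, 1060 with hsa-miR-33b* and 702 with hsa-miR-1825. Mt-nd5, the outermost proton-pumping subunit, stood at 982, 551, 860, 642, 515, 878 and 704 RPKM in the same order. Both were lowest with hsa-miR-302d-3p and not with hsa-miR-199a-3p. Mt-nd6 was the most lowered mRNA row with hsa-miR-302d-3p (-1.28), hsa-miR-373-3p (-0.82) and hsa-miR-1825 (-0.72), and the least lowered with hsa-miR-199a-3p (-0.79).

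The ratio of Mt-nd6 to Mt-nd1 in RPKM was 2.14 with cel-miR-67, 2.95 with hsa-miR-199a-3p, 1.94 with hsa-miR-590-3p, 1.43 with hsa-miR-373-3p, 1.12 with hsa-miR-302d-3p, 2.11 with hsa-miR-33b* and 1.42 with hsa-miR-1825. It was highest with hsa-miR-199a-3p and lowest with hsa-miR-302d-3p, a ratio that no scaling of a library changes. Of the mRNA rows, Mt-nd1 was the one whose ratio to Mt-nd6 varied most over the libraries (SD of the log2 ratio 0.471). The ratio of Mt-nd6 to Mt-cytb ran from 0.807 with hsa-miR-302d-3p to 1.46 with hsa-miR-199a-3p, with hsa-miR-33b* close to the latter at 1.43. The ratio of Mt-nd6 to Mt-nd5 varied less, from 0.926 with hsa-miR-302d-3p to 1.22 with hsa-miR-199a-3p. Mt-nd5 lies next to Mt-nd6 on the opposite strand, and the strand setting of the counting is not given in the sources used here, so reads of Mt-nd6 and antisense reads of the Mt-nd5 side cannot be told apart. The miRNAs hsa-miR-302d-3p and hsa-miR-373-3p are known to share a seed, and their 2 libraries had the lowest levels of Mt-nd6, with hsa-miR-199a-3p next at 670 RPKM.

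**Figure D4:**
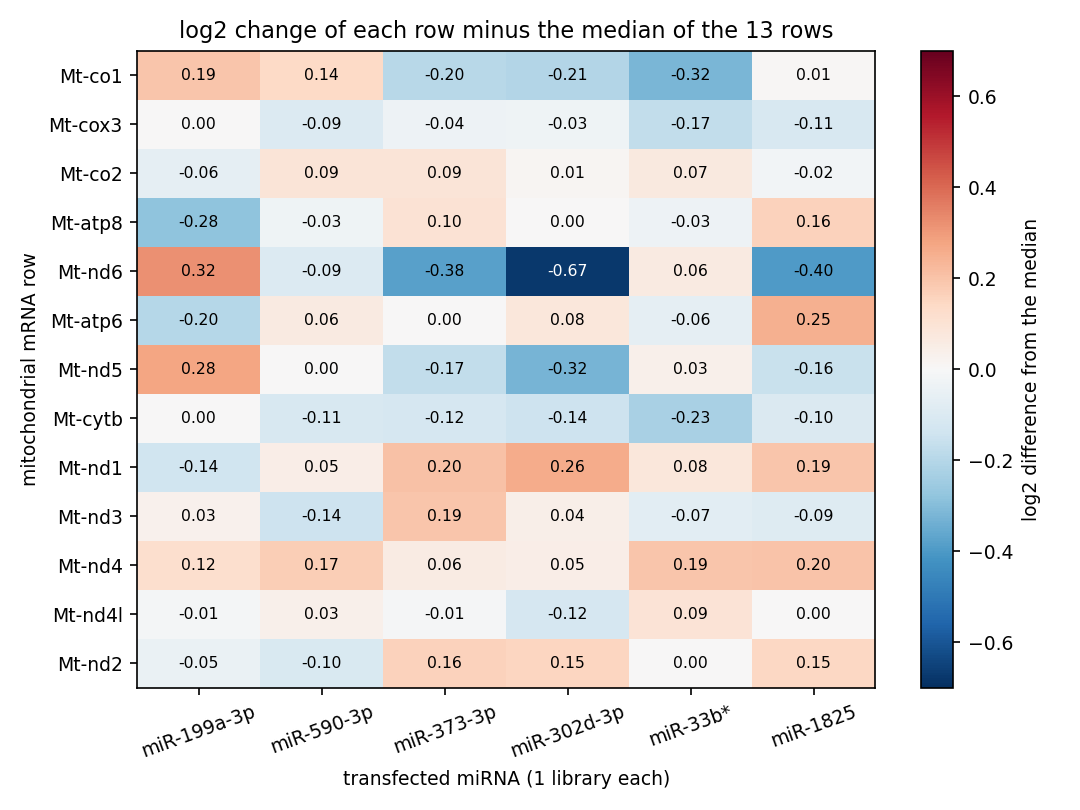
Change of each mitochondrial mRNA row minus the median change of the 13 mRNA rows in the same library (log2 units), against cel-miR-67. Mt-nd6 lies above the median with hsa-miR-199a-3p and below it most with hsa-miR-302d-3p, while Mt-atp8 and Mt-atp6 lie below it most with hsa-miR-199a-3p.

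Rows that overlap on the genome kept close ratios. The ratio of Mt-atp8 to Mt-atp6, whose reading frames overlap, was 2.57 to 2.95 over the 7 libraries (SD of the log2 ratio 0.076). That of Mt-nd4l to Mt-nd4, the other overlapping pair, was 0.920 to 1.06 (SD 0.067). Each pair lies on 1 shared mRNA and reads of the overlap can belong to either row, so their rows are not separate measurements. Of the 21 rows with a mean of at least 10 RPKM, the pairs with the smallest SD of the log2 ratio over 7 libraries were AY172581.19 with Mt-co1 and Mt-cox3 with Mt-cytb, both at 0.048. Mt-nd6 had its nearest row in Mt-nd5, at 0.153. Points of a pair share the library and its scaling, and these SDs are descriptions.

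The tRNA rows were very unequal. AY172581.19, of 69 bases, stood at 84301 RPKM with cel-miR-67, 43934 with hsa-miR-199a-3p, 75857 with hsa-miR-590-3p, 53401 with hsa-miR-373-3p, 45445 with hsa-miR-302d-3p, 60049 with hsa-miR-33b* and 63655 with hsa-miR-1825. It held 98.1% to 98.9% of the summed tRNA RPKM, and its ratio to Mt-co1 was 4.24 to 4.62 in all 7 libraries. In the cel-miR-67 library it had 1911 reads per base of the row, against 421 for Mt-co1 and 5480 for the larger rRNA row. Mature tRNAs are short and carry no poly(A) tail of the mRNA kind. Whether reads of a longer precursor or of a neighbouring gene were counted in this row was not tested.

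The 5 other tRNA rows with a mean of at least 10 RPKM lay between 35.4 and 362 RPKM. AY172581.7 stood at 362 RPKM with cel-miR-67, 160 with hsa-miR-199a-3p, 280 with hsa-miR-590-3p, 211 with hsa-miR-373-3p, 162 with hsa-miR-302d-3p, 209 with hsa-miR-33b* and 189 with hsa-miR-1825. AY172581.21 stood at 94.4, 35.4, 76.1, 59.3, 48.7, 79.1 and 75.7 RPKM. These 2 rows were highest with cel-miR-67 and lowest with hsa-miR-199a-3p, as most mRNA rows were.

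The other 3 had their highest value in the hsa-miR-33b* library. AY172581.2 stood at 217, 124, 161, 178, 137, 276 and 140 RPKM in the order of libraries from cel-miR-67 to hsa-miR-1825. AY172581.8 stood at 196, 68.4, 215, 131, 137, 296 and 179 RPKM, and AY172581.6 at 188, 76.7, 189, 157, 146, 232 and 139. The read ratios of hsa-miR-33b* to cel-miR-67 were 1.27 (95% interval 1.10 to 1.47), 1.51 (1.30 to 1.75) and 1.23 (1.05 to 1.45). Of the mRNA rows of that library, 13 of 13 were below the reference in the deposited RPKM and 10 of 13 when scaled to the total of listed reads.

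At the 1.5-fold limit, 6 of the 6 tRNA rows with a mean of at least 10 RPKM were lower with hsa-miR-199a-3p (5.55% of all rows), 4 with hsa-miR-302d-3p (7.32%), 3 with hsa-miR-373-3p (6.56%), 2 with hsa-miR-1825 (6.33%) and 0 with hsa-miR-590-3p (3.49%). With hsa-miR-33b* 1 was lower, AY172581.7 (5.52% of all rows), and 1 higher, AY172581.8 (5.17%).

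The remaining 5 tRNA rows rested on few reads. AY172581.22 had 9 to 24 reads per library, AY172581.20 had 7 to 31, AY172581.15 had 5 to 15, AY172581.12 had 0 to 7 and AY172581.4 had 0 to 3. The last did not reach a mean of 1 RPKM, which leaves 25 of the 26 members past that filter. For a row of 69 bases, 3 reads correspond to 1.25 to 1.94 RPKM, so differences of the 2 lowest rows were not detectable at this depth. AY172581.20 had 31 reads with hsa-miR-33b* and 10 with cel-miR-67, a ratio of 3.13 (95% interval 1.5 to 7.16).

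Respiratory complexes also need subunits encoded in the nucleus, which are transcribed and translated apart from the mitochondrial ones. Their rows were collected by symbol after the data had been seen. With hsa-miR-199a-3p the median change of nuclear subunits was -0.48 for complex I (31 rows), -0.52 for complex III (8), -0.57 for complex IV (14) and -0.44 for complex V (16). In that library 10 of 31, 2 of 8, 6 of 14 and 3 of 16 were at least 1.5-fold lower, against 5.55% of all rows and 13.1% of rows with a mean of at least 100 RPKM. The 13.1% includes the mitochondrial mRNA and rRNA rows, and those tRNA and nuclear subunit rows that have a mean of at least 100 RPKM. The mitochondrial medians of the same complexes were lower still, at -1.08, -1.11, -1.11 and -1.35.

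With hsa-miR-302d-3p the nuclear medians were near 0 where the mitochondrial ones were not: the mitochondrial medians were -0.56, -0.75, -0.64 and -0.57 for complexes I, III, IV and V, and the nuclear ones -0.09, -0.07, -0.0049 and 0.03. The hsa-miR-373-3p library had nuclear medians of -0.13, -0.05, 0.01 and -0.01. With hsa-miR-1825 the nuclear median of complex V (-0.35) was below the mitochondrial one (-0.12), and those of complex III (-0.44 and -0.42) differed by less than the counting error of Mt-cytb. In the same library the nuclear medians of complexes I (-0.27) and IV (-0.13) were above the mitochondrial ones (-0.32 and -0.35). With hsa-miR-590-3p and hsa-miR-33b* both kinds of subunit had medians between -0.42 and -0.09. These medians rest on 1 library per miRNA, and their differences were not tested.

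**Figure D5:**
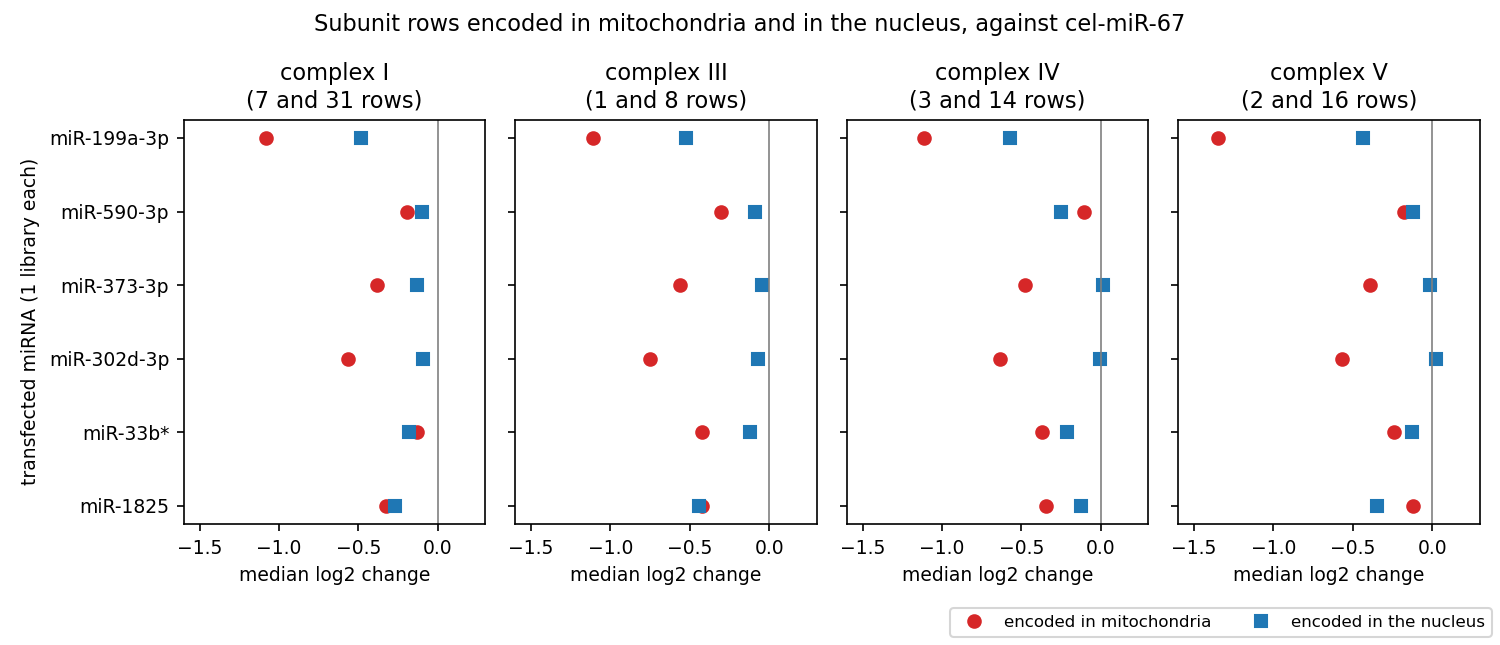
Median log2 change against cel-miR-67 of the mitochondrial (circles) and nuclear (squares) subunit rows of complexes I, III, IV and V, by library. The circles lie furthest left with hsa-miR-199a-3p, where the squares are also left of 0, and lie apart from squares near 0 with hsa-miR-302d-3p.

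Nuclear genes that make and handle mitochondrial RNA were examined in 6 lists of 113 genes, of which 110 were found and 109 reached a mean of 1 RPKM. With hsa-miR-199a-3p 5 of 109 were at least 1.5-fold lower and 1 higher, with hsa-miR-590-3p 2 and 1, with hsa-miR-373-3p 1 and 1, with hsa-miR-302d-3p 3 and 0, with hsa-miR-33b* 1 and 3, and with hsa-miR-1825 4 and 2. These shares were at or below those of all rows in every library (3.49% to 7.32% lower and 4.7% to 5.94% higher). The medians over the 109 genes were -0.11 to 0.04.

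The transcription machinery was on the whole close to its reference level. Polrmt, the mitochondrial RNA polymerase, was low everywhere at 1.58 to 2.21 RPKM and changed by -0.32 to -0.05. Tfam changed by -0.11 to 0.07. Tfb2m, the initiation factor, stood at 19.2 RPKM with cel-miR-67, 10.8 with hsa-miR-199a-3p, 21.4 with hsa-miR-590-3p, 14.1 with hsa-miR-373-3p, 13.1 with hsa-miR-302d-3p, 17.9 with hsa-miR-33b* and 16.3 with hsa-miR-1825. Its lowest 3 libraries were those with the lowest mitochondrial mRNA medians, at changes of -0.77, -0.52 and -0.42, and its part in their values was not tested. Tefm, the elongation factor, was below the reference in all 6 libraries (-0.38 to -0.14). Top1mt, the mitochondrial topoisomerase, changed by -0.18 to 0.46, and Primpol, a primase-polymerase, by 0.20 to 0.47. Of the 19 genes of this list, 2 were 1.5-fold lower with hsa-miR-199a-3p, Tfb2m and the ribosomal protein Mrpl12 (-1.08), where 5.55% of all rows were. With hsa-miR-1825 1 was lower, the nuclease Mgme1 (-0.71), where 6.33% of all rows were. Mrpl12 and Mgme1 are named after their values were seen. None of the 19 was past the limit in the 4 other libraries.

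Of the 27 measured genes of mitochondrial RNA processing, stability and decay, 1 was past the 1.5-fold limit. It was Tbrg4, an RNA-binding protein of the FASTK family, at -0.72 with hsa-miR-33b*, where 5.52% of all rows were lower. Lrpprc, which stabilises mitochondrial mRNAs, changed by -0.10 to 0.20, and its partner Slirp by -0.32 to 0.04. Pnpt1, the mitochondrial RNA-degrading phosphorylase, was below the reference in all 6 libraries (-0.39 to -0.11), and the RNA-binding protein Grsf1 changed by -0.13 to 0.32. Angel2, of a family of RNA-cleaving enzymes, was above it in all 6 (0.12 to 0.41).

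Among the 14 mitochondrial translation factors, Tufm, the elongation factor that brings tRNAs to the ribosome, stood at 58.9 RPKM with cel-miR-67 and 35.2 with hsa-miR-1825 (-0.73). Taco1, an activator of Mt-co1 translation named after its value was seen, changed by -0.59 with hsa-miR-199a-3p, and no other gene of this list was past the limit. Tsfm, the exchange factor of Tufm, changed by -0.54 to -0.04. Gfm2, a ribosome recycling factor, changed by -0.03 to 0.33, and Mss51, named for a yeast translation activator, by -0.07 to 0.47. None of the 22 genes that charge mitochondrial tRNAs was past the 1.5-fold limit in any library. Of these, Mars2 (methionine) changed by 0.0049 to 0.52, Pars2 (proline) by -0.18 to 0.44, Tars2 (threonine) by -0.50 to -0.08, and Gatb, a subunit of the enzyme that forms glutaminyl-tRNA, by -0.55 to 0.40.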

How the data were processed

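The authors deposited RPKM values, per the file headers, of 17141 rows in 7 TruSeq mRNA libraries, 1 per transfected miRNA. STAR 2.7, edgeR and Rnor_6.0 are named, with no role or order, in the submitters' processing notes. For annotation, strand setting and read counter the sources used here give nothing. The members and gene lists were chosen with earlier results of these data known.

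The groups follow the miRNA named in the labels. A change is the log2 (RPKM + 1) of a library minus that of cel-miR-67, a scale that understates the changes of low rows, and calls use a fixed 1.5-fold limit over the 12330 rows with a mean of at least 1 RPKM (no test). Python 3.11.15, pandas 2.3.3, numpy 2.4.6 and scipy 1.17.1 were used. Whole reads, lengths and library sizes were recovered from the RPKM steps for 100.0% of rows, within 0.002 to 0.05 reads, and the recovery was tested on simulated data. Sizes ran from 22446204 to 34708142 reads. Listed reads were 85.5% to 109.5% of them, so the sizes carry a factor beyond the listed reads. Clopper-Pearson intervals at 95% and limits from 3 reads cover counting error only.

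Every mitochondrial row could be named. Each nuclear list gave its 2 highest and 2 lowest genes by median change, beside Polrmt, Tfam, Tfb2m, Tefm, Lrpprc, Slirp and Ppargc1a. Nuclear subunits were taken by symbol after the data were seen. Copies of mitochondrial DNA in nuclear chromosomes could share reads with the mitochondrial rows. The alternatives were 2 other pseudocounts, other scalings and references, a 2-fold limit, protein-coding rows only and shares of reads.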

Additional observations from a re-analysis of the deposited data

How the results depend on the processing

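No paired analysis was possible because each group has 1 library, and for the same reason no library could be left out. Both other pseudocounts (0.1 and 5) moved all 156 single-row changes by less than their counting intervals. Pseudocount 5 lowered the counts of nuclear partner genes past 1.5-fold to 3 lower and 0 higher with hsa-miR-199a-3p, 1 lower with hsa-miR-590-3p, 1 lower with hsa-miR-302d-3p, 0 lower and 2 higher with hsa-miR-33b*, and 2 lower and 1 higher with hsa-miR-1825. Of all 12330 rows, 285, 124, 402, 247 and 289 were then lower in these libraries, in the same order. Higher were 226 with hsa-miR-199a-3p, 243 with hsa-miR-33b* and 357 with hsa-miR-1825. A 2-fold limit left 0 mRNA rows lower with hsa-miR-373-3p and hsa-miR-1825 and 1 with hsa-miR-302d-3p. Over protein-coding rows only, mitochondrial rows held 10.6%, 5.88%, 9.83%, 7.44%, 6.56%, 8.41% and 8.48% of summed RPKM from cel-miR-67 to hsa-miR-1825, and as shares of reads 41.0%, 27.7%, 41.4%, 33.2%, 30.6%, 37.9% and 35.5%.

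In the following lists the order is hsa-miR-199a-3p, hsa-miR-590-3p, hsa-miR-373-3p, hsa-miR-302d-3p, hsa-miR-33b* and hsa-miR-1825. Scaled to the same sum over all rows, the mRNA medians were -0.62, -0.17, -0.19, -0.28, -0.053 and -0.16 and the rRNA changes -0.43, 0.033, -0.24, -0.34, -0.065 and -0.17, while the median of all rows was 0.42, 0.02, 0.22, 0.30, 0.11 and 0.15. Scaled to the total of listed reads (chosen after seeing the data), the mRNA medians were -0.75, -0.18, -0.25, -0.36, -0.074 and -0.19 and the rRNA changes -0.56, 0.024, -0.30, -0.42, -0.087 and -0.20. The 1.5-fold counts of mRNA rows then fell to 10 with hsa-miR-199a-3p, 1 with hsa-miR-373-3p and 2 with hsa-miR-302d-3p. Scaled to the same sum outside the mitochondrial genome, the mRNA median was -1.004 with hsa-miR-199a-3p, its nuclear partner count 3 lower, and the rRNA changes were -0.81, 0.018, -0.50, -0.68, -0.21 and -0.35. With all rows scaled to 1 sum, rows past 1.5-fold over the whole table went from 684 lower and 593 higher to 206 and 3380 with hsa-miR-199a-3p, from 809 and 595 to 431 and 1457 with hsa-miR-373-3p, from 902 and 630 to 429 and 2283 with hsa-miR-302d-3p, from 681 and 637 to 454 and 1031 with hsa-miR-33b*, and from 780 and 733 to 508 and 1221 with hsa-miR-1825. With listed reads they were 261 and 2032, 485 and 1176, 512 and 1663, 480 and 945, and 558 and 1100, and outside the mitochondrial genome 491 and 811 with hsa-miR-199a-3p.

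With the median of the other 5 miRNA libraries as reference, the mRNA medians were -0.80, 0.26, -0.11, -0.30, 0.15 and 0.13 and the rRNA changes -0.58, 0.50, -0.16, -0.33, 0.28 and 0.16, so the mRNA medians of hsa-miR-590-3p, hsa-miR-33b* and hsa-miR-1825 turned from below to above 0, and 0 of 13 mRNA rows were below 0 in all 6 comparisons. Called changes also turned for AY172581.22 with hsa-miR-590-3p (0.61) and hsa-miR-302d-3p (0.50), AY172581.7 with hsa-miR-373-3p (0.16) and hsa-miR-33b* (0.14), and Mt-nd6 with hsa-miR-1825 (0.066). The mRNA medians of hsa-miR-199a-3p, hsa-miR-302d-3p and hsa-miR-373-3p were below 0 with either reference. The lowest libraries of a set lie below the median of the others by construction, so for them this is no check. Without the overlapping pairs the SD among mRNA rows was 0.16 with hsa-miR-199a-3p and 0.28 with hsa-miR-302d-3p.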

Other observations

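Genes that control the number and removal of mitochondria were also measured. Of 15 measured regulators of mitochondrial gene number, Ppargc1a, the coactivator known for raising mitochondrial gene expression, stood at 6.27 RPKM with cel-miR-67 and at 10.4 with hsa-miR-199a-3p (log2 change 0.65), 7.66 with hsa-miR-590-3p, 8.16 with hsa-miR-373-3p, 6.60 with hsa-miR-302d-3p, 9.57 with hsa-miR-33b* and 6.64 with hsa-miR-1825. It was above the reference in all 6 libraries, by 0.06 to 0.65, and highest in the library with the lowest mitochondrial RNA. Esrrg, a nuclear receptor of energy metabolism genes, was below the reference in all 6 (-0.61 to -0.36). Its relative Esrrb changed by -0.46 to 0.75, and the AMP-activated kinase subunit Prkaa2 by -0.48 to 0.21.

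Of the 12 measured genes of mitophagy, fission or fusion, Pink1, the kinase that marks damaged mitochondria, stood at 22.2 RPKM with cel-miR-67, 13.7 with hsa-miR-199a-3p, 11.7 with hsa-miR-590-3p, 10.4 with hsa-miR-373-3p, 10.9 with hsa-miR-302d-3p, 15.0 with hsa-miR-33b* and 14.2 with hsa-miR-1825. Bnip3, a mitophagy receptor, stood at 32.8, 36.6, 73.6, 51.8, 30.1, 103.7 and 69.6 RPKM in the same order. The Bnip3 level was thus lowest in cel-miR-67, hsa-miR-302d-3p and hsa-miR-199a-3p, and at more than 2-fold the reference level with hsa-miR-590-3p, hsa-miR-33b* and hsa-miR-1825. Its relative Bnip3l changed by 0.01 to 0.87. The mitophagy receptor Fundc1 changed by -1.42 with hsa-miR-1825, -0.74 with hsa-miR-302d-3p and -0.49 to 0.19 in the 4 others. Mfn1 and Mfn2, which fuse outer mitochondrial membranes, are named after their values were seen, with -0.87 for Mfn1 in hsa-miR-199a-3p and -0.64 for Mfn2 in hsa-miR-302d-3p. No relation of these genes to the mitochondrial rows was tested.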
